A study of Homo sapiens with 4 samples.

Results

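The genes described here encode the linker histones H1 that are made during DNA replication. They were chosen by gene symbol in GENCODE 29 and not by any measured value: HIST1H1A, HIST1H1B, HIST1H1C, HIST1H1D, HIST1H1E and HIST1H1T. All 6 were listed in at least 1 library, among 16292 transcripts listed in all, and 4 of the 6 reached the mean of 5 RPKM over the libraries that was asked of a gene before its ratios were counted, as did 9612 transcripts in all. HIST1H1A and HIST1H1B did not reach it, and their values are given as levels only.

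Linker histones bind the nucleosome where DNA enters and leaves it and help to fold the chromatin fibre. The core histones H2A, H2B, H3 and H4 form the nucleosome itself. The replication-dependent histone genes are transcribed mainly in S phase, have no introns, and give mRNAs that end in a stem-loop bound by SLBP in place of a poly(A) tail. HIST1H1A to HIST1H1E are the somatic members, whereas HIST1H1T is known as the form of the testis, where it is made in spermatocytes. Several somatic forms can stand in for each other in mice that lack 1 of them.

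Ribosome footprints, the mRNA fragments that a translating ribosome shields from nuclease, had been sequenced from HEK293, an established line from human embryonic kidney. The 4 libraries were wild type cells without erythromycin, wild type cells with erythromycin, RPL4 mutant cells without erythromycin and RPL4 mutant cells with erythromycin, 1 library in each group. Erythromycin is a macrolide that binds the exit tunnel of bacterial ribosomes, and RPL4 belongs to the large subunit of the cytosolic ribosome, where a loop of it reaches into the tunnel. According to the labels, stable HEK293 lines carried GFP, L4 wild type or a Δloop mutant and received lentiviral shRNA against RPL4 or a scramble shRNA. Cells were treated with CHX, which stops elongating ribosomes, or LTM, which stops initiating ones. Which line, shRNA and inhibitor each library had is not given, nor is a dose or time of erythromycin. The libraries held 604506 to 2965243 reads, fewer in both mutant libraries than in both wild type ones. RPL4 stood at 2515 RPKM in untreated wild type, 2586 RPKM in treated wild type, 1707 RPKM in the untreated mutant and 1439 RPKM in the treated mutant, where RPKM scales reads by coding length and by the size of the library. A transgene copy would be read as RPL4, so this checks the labels in part only. VIM, KRT8, KRT18 and NEFL were at 43.6 RPKM or more in every library, PAX2 and NEFM stayed below 3 RPKM, and ALB, HBB and PTPRC had at most 1 read in any library.

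The H1 genes share a promoter layout, which is shown because genes with high and with low levels carried the same short motifs at similar distances from the start. The 140 bases before the RefSeq start (GRCh38.p14, 6 of 6 genes matched) are printed on the strand of the gene for the pair with the highest levels, for HIST1H1T, for HIST1H1B and for HIST1H1A. Capitals mark the H1 box, spelled AAACACA, then the CCAAT box, and last the TATA box in the form TATAAA or the form TATATA. Both TATA forms overlap each other in HIST1H1D and HIST1H1E. All were searched on both strands, but capitals mark matches on the printed strand only. HIST1H1B also had CCAAT on the opposite strand, at positions −66 to −62, left in lower case.
HIST1H1E, chr6:26156189-26156328, plus strand: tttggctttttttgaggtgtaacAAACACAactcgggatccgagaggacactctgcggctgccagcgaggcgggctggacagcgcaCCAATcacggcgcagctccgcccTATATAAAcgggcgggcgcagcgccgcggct
HIST1H1C, chr6:26056471-26056610, minus strand: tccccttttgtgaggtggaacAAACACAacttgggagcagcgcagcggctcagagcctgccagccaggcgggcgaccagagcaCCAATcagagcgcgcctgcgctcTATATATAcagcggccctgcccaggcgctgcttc
HIST1H1T, chr6:26108136-26108275, minus strand: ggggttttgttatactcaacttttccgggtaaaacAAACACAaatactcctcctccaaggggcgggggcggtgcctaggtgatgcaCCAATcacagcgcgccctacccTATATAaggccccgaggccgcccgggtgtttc
HIST1H1B, chr6:27867589-27867728, minus strand: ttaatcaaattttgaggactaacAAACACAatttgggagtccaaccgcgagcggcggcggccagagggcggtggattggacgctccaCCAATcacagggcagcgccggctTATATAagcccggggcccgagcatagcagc
HIST1H1A, chr6:26017788-26017927, minus strand: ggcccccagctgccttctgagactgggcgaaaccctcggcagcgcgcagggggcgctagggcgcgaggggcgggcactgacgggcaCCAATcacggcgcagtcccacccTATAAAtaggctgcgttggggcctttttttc

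AAACACA lay on the gene's own strand in 5 of the 6 windows, HIST1H1D included, and in 1.25% of 35116 RefSeq promoter windows of the same length. Counted from the start, it began at position −117 in HIST1H1B and HIST1H1E, at −119 in HIST1H1C and HIST1H1D and at −105 in HIST1H1T. The HIST1H1A window did not hold these letters, and in the full 300 bases from 250 before to 50 after the start HIST1H1A had them on the opposite strand only, from position −183. CCAAT was in all 6 windows and in 12.2% of all windows. TATATA was in 5 of the 6 (2.08% of all windows) and TATAAA in 3 (4.3%), among them HIST1H1A, which had TATAAA alone. Counting both strands of the 300 bases, AAACACA was in 5.64% of all promoters, CCAAT in 34.6%, TATAAA in 11.5% and TATATA in 3.99%. An H1 box, CCAAT and either TATA form stood together on the same strand in 9 of the 35116 windows (0.0256%), and 5 of those 9 belonged to H1 genes. These matches describe letters and say nothing of binding.

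The genes lie on chromosome 6 (GRCh38), each with 1 exon and none overlapped by another GENCODE gene. HIST1H1A (26017085 to 26017732), HIST1H1C (26055787 to 26056428), HIST1H1T (26107419 to 26108136), HIST1H1E (26156354 to 26157107) and HIST1H1D (26234268 to 26234933) fall within 218 kb of the large histone cluster. HIST1H1B (27866849 to 27867529) lies 1.63 Mb beyond HIST1H1D. HIST1H1E is on the plus strand and the other 5 are on the minus strand.

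HIST1H1E and HIST1H1C carried nearly all H1 footprints. HIST1H1E, one of the main somatic forms, stood at 10056.9 RPKM in wild type without erythromycin, 9811.4 RPKM in wild type with it, 7917.8 RPKM in the mutant without it and 8520.9 RPKM in the mutant with it. These levels rest on 19682, 16549, 3159 and 5587 reads. Both mutant values lay below both wild type values, and by RPKM the gene ranked 3rd, 3rd, 4th and 2nd of all transcripts listed in its library.

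HIST1H1C, the other abundant somatic form, stood at 7922.5 and 8342.2 RPKM in wild type without and with erythromycin and at 7333.3 and 7359.7 RPKM in the mutant, from 15082, 13687, 2846 and 4694 reads. Its rank was 10, 8, 7 and 7. The mutant values again lay below the wild type values, by a smaller step than for HIST1H1E without the drug. HIST1H1C was below HIST1H1E in each of the 4 libraries, and their 95% Poisson counting intervals did not overlap in any of them. They came closest in the mutant without erythromycin, where the interval of HIST1H1C ended at 7607.8 RPKM and that of HIST1H1E began at 7644.1 RPKM. Together the pair made up 96.7% to 97.5% of the summed H1 RPKM.

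HIST1H1D, a somatic form that is usually less abundant, stood at 571.7 and 455.3 RPKM in wild type and at 387.5 and 439.8 RPKM in the mutant, without and with erythromycin in each case, from 1129, 775, 156 and 291 reads. Wild type without the drug was the highest of the 4, and its interval (538.8 to 606.0 RPKM) did not overlap the others. The intervals of the other 3 libraries overlapped one another (423.8 to 488.6, 329.1 to 453.3 and 390.7 to 493.4 RPKM). HIST1H1D came after HIST1H1C in every library, with intervals far apart.

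HIST1H1T, the testis form, was listed in all 4 libraries at a low level: 34.6 RPKM (64 reads) and 14.4 RPKM (23 reads) in wild type without and with erythromycin, and 29.2 RPKM (11 reads) and 17.7 RPKM (11 reads) in the mutant. Both libraries without the drug were above both libraries with it, although the mutant intervals, 14.6 to 52.2 RPKM and 8.86 to 31.8 RPKM, overlapped. Male germ cell markers were near 0. Of 9 markers, PRM1, PRM2, TNP2, ODF1 and SYCP3 were in no library, and the summed level of the other 4, TNP1, ACR, DAZL and DDX4, was 8.65 and 2.51 RPKM in wild type and 0 and 0.463 RPKM in the mutant. None of these 4 had more than 4 reads in a library. None of its coding windows of 28 bases (0%) occurred in another GENCODE coding sequence. Its neighbours on either side were abundant: HIST1H4C, a gene for histone H4, lies 3108 bases away with a mean of 10209.5 RPKM, and HIST1H2BC, a gene for histone H2B, 6736 bases away with 3094.1 RPKM. Whether reads of neighbours contribute was not tested.

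HIST1H1B, a somatic form best known from dividing cells, had 5 and 6 reads in wild type (2.48 and 3.45 RPKM), 0 reads in the mutant without erythromycin and 2 reads (2.96 RPKM) with it. The 0 allows up to 7.29 RPKM, the level of 3 reads in that library. HIST1H1A, a somatic form found mostly in lymphoid cells and testis, had 0 reads in both wild type libraries, which allows up to 1.56 and 1.81 RPKM, and 1 read (2.55 RPKM) and 2 reads (3.11 RPKM) in the mutant. HIST1H1B had more reads than HIST1H1A in wild type with and without the drug, and fewer in the mutant without it. Their counting ranges overlapped in every library, and their order was not tested. HIST1H1T lay above both, with overlapping intervals in the mutant with erythromycin (8.86 to 31.8 RPKM against 0.358 to 10.7 RPKM for HIST1H1B). HIST1H2BN, a gene for histone H2B that lies 1050 bases from HIST1H1B, had a mean of 459 RPKM.

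**Figure D1:**
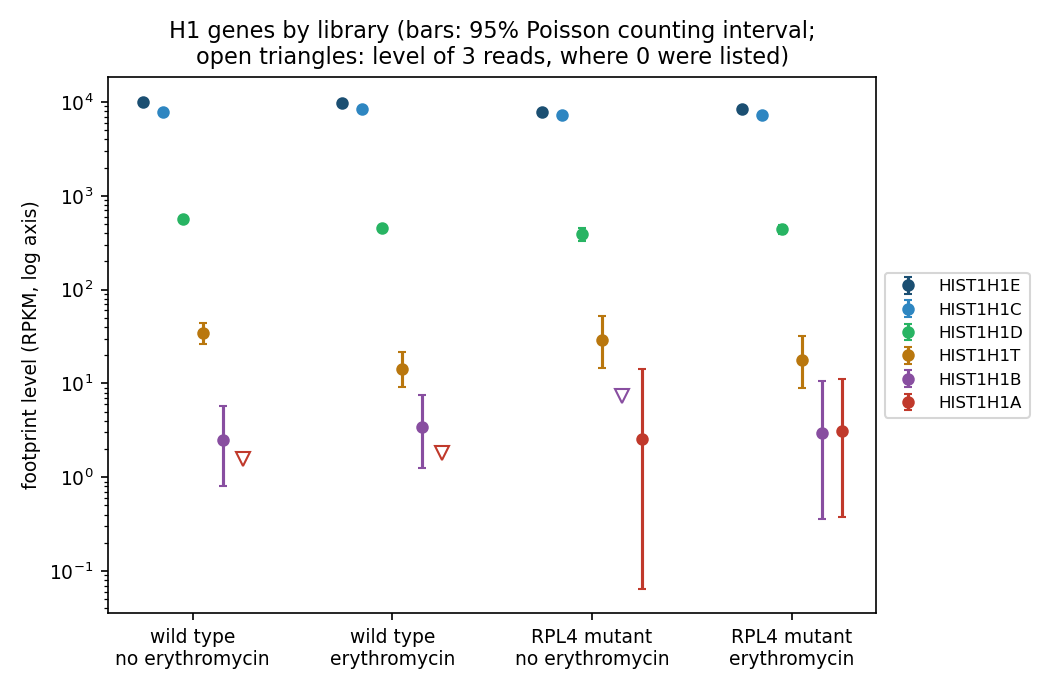
Footprint level of the 6 H1 genes in each of the 4 libraries (RPKM, log axis); points are single libraries, bars are 95% Poisson counting intervals and open triangles mark the level of 3 reads where none were listed. HIST1H1E and HIST1H1C lie between 7333.3 and 10056.9 RPKM in every library, HIST1H1D between 387.5 and 571.7 RPKM, and HIST1H1B and HIST1H1A below 4 RPKM wherever they were listed.

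Among coding sequences, HIST1H1E and HIST1H1C shared 77.1% of aligned bases, the highest of the 15 pairs, and HIST1H1E and HIST1H1D 76.7%. HIST1H1B shared 74.6% with HIST1H1E while their mean levels were 2.22 and 9076.8 RPKM. HIST1H1T was the most distant member, with 56.7% to 59.4% identity to the 5 somatic genes. Since footprints are short, the stretches that 2 genes share decide which reads can be told apart, and the 3 longest are printed for that reason.
HIST1H1B bases 269 to 305 and HIST1H1E bases 260 to 296: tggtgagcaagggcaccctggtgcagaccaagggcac
HIST1H1B bases 307 to 341 and HIST1H1C bases 298 to 332: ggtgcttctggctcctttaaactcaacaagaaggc
HIST1H1C bases 247 to 275 and HIST1H1E bases 247 to 275: ggtctcaagagcctggtgagcaagggcac

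Positions count from 1 at the first base of the coding sequence. Of all windows of 28 bases, near the length of a footprint, 2.8% in HIST1H1B, 1.6% in HIST1H1C and 1.9% in HIST1H1E occurred in another GENCODE coding sequence, always that of another H1 gene of this set. HIST1H1A, HIST1H1D and HIST1H1T shared none. How the authors counted reads with more than 1 match is not given in the sources used here. RPKM values do not place reads within a gene, so that HIST1H1B reads and reads of HIST1H1E or HIST1H1C in these stretches cannot be told apart.

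The 6 genes were also extreme in codon content. Lysine codons (AAA and AAG) made up 26.5% of codons in HIST1H1A, 28.8% in HIST1H1B, 27.7% in HIST1H1C, 27.6% in HIST1H1D, 28.3% in HIST1H1E and 19.3% in HIST1H1T. The median of 9536 other transcripts that passed the filter was 5.8%, and 19 of them (0.199%) reached the share of HIST1H1T. Only 2 of those 9536 reached that of HIST1H1A, the lowest of the somatic genes. AAG outnumbered AAA in every member, from 35 against 22 codons in HIST1H1A to 51 against 14 in HIST1H1B. The lysines were spread out: the longest run was 3 codons in the somatic genes and 2 in HIST1H1T, and 19.2% of the other transcripts had a run of 3 or more.

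The comparison of libraries with and without erythromycin within wild type asked how H1 footprints stood under the drug when RPL4 was unaltered. The summed level of the 6 genes was 18588.2 RPKM without and 18626.8 RPKM with erythromycin, which is a log2 ratio of 0.02 (95% counting interval −0.00 to 0.04). Ratios are of RPKM plus 1, centred on the median of the 9612 transcripts, and the intervals cover counting error only, since no group had a replicate. HIST1H1E had a ratio of −0.02 (−0.05 to 0.01) and HIST1H1C of 0.09 (0.06 to 0.12). HIST1H1D was lower with the drug, at −0.31 (−0.45 to −0.18), and 36.8% of all transcripts tested were at least as far from 0. HIST1H1T stood at −1.19 (−2.0 to −0.54), with 0.8% of transcripts tested lower. It was the 1 member of the 4 tested beyond 2-fold, against 3.27% of all transcripts (314 of 9612). That value rests on 23 against 64 reads, and an earlier reading of these libraries had already listed HIST1H1T among the lowest genes.

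The same comparison in RPL4 mutant cells gave a summed level of 15670.3 RPKM without and 16344.1 RPKM with erythromycin, a ratio of 0.01 (−0.04 to 0.05). HIST1H1E had a ratio of 0.05 (−0.01 to 0.12), HIST1H1D of 0.13 (−0.16 to 0.42) and HIST1H1T of −0.74 (−2.12 to 0.58). HIST1H1C stood at −0.05 (−0.12 to 0.02), and at 0.01 with RPKM as deposited in place of centred ratios. Every one of these intervals included 0. None of the 4 members was beyond 2-fold, where 9.61% of all transcripts were.

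Mutant cells were set against wild type cells to see how H1 footprints differed with the genotype. Without erythromycin the summed ratio of mutant over wild type was −0.22 (−0.26 to −0.18), or −14.2%. HIST1H1E had −0.32 (−0.37 to −0.27), HIST1H1C −0.09 (−0.14 to −0.03) and HIST1H1D −0.53 (−0.79 to −0.29). The value of HIST1H1C came to −0.0011 when libraries were scaled to a common RPKM sum, a scaling under which HIST1H1E kept −0.23 and HIST1H1D −0.45. HIST1H1T stood at −0.21 (−1.29 to 0.71). None of the 4 passed 2-fold, against 8.6% of all transcripts, and 48.1% of transcripts tested were at least as far from 0 as HIST1H1E.

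With erythromycin the summed ratio of mutant over wild type was −0.25 (−0.28 to −0.22), or −16.0%. HIST1H1E stood at −0.27 (−0.31 to −0.22) and HIST1H1C at −0.24 (−0.29 to −0.20), so that here the pair lay close together. Both values moved outside these intervals under other scalings. They were −0.13 and −0.10 on the common RPKM sum and −0.20 and −0.18 with RPKM as deposited. HIST1H1D had −0.11 (−0.31 to 0.08), and 0.03 on the common RPKM sum. HIST1H1T had 0.22 (−0.95 to 1.33). None of the 4 passed 2-fold, where 9.28% of all transcripts did, although HIST1H1T, with 11 and 23 reads, came to 1.19 once reads were thinned to the depth of the shallowest library. Thinning drops reads at random, so with so few reads the value depends on the draw. Scaling to a common sum put the median of all transcripts at 0.14 in this comparison and at 0.08 without erythromycin, and the summed H1 ratio was then −0.11 and −0.14.

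**Figure D2:**
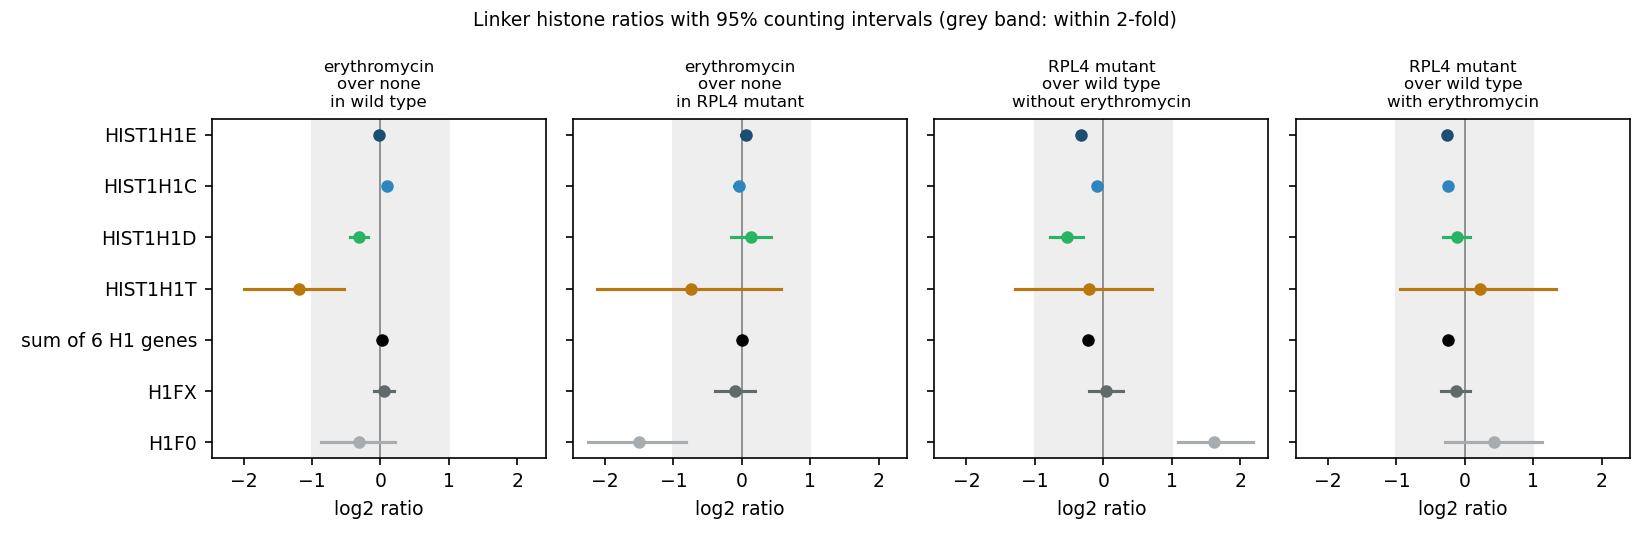
Centred log2 ratios of the 4 H1 genes that passed the filter, of the sum over all 6, and of the replication-independent H1FX and H1F0, in the 4 comparisons between single libraries; bars are 95% counting intervals and the grey band spans 2-fold either way. The sum lies at 0.02 and 0.01 for erythromycin and at −0.22 and −0.25 for the mutant, HIST1H1T leaves the band in wild type with a value of −1.19, and the signs of HIST1H1C with erythromycin in the mutant and of HIST1H1D in the mutant with erythromycin flip under another scaling.

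The share of all reads that fell on the 6 genes is a measure without centring. It was 1.213% (Wilson 95% interval 1.200% to 1.225%) in untreated wild type and 1.215% (1.201% to 1.228%) in treated wild type. In the mutant it was 1.021% (0.996% to 1.047%) without the drug and 1.066% (1.046% to 1.086%) with it. The mutant intervals lay below those of wild type. Intervals with and without the drug overlapped widely in wild type but barely in the mutant, from 1.046% to 1.047%. Such an overlap is not a test of a difference, and no test was made. In the mutant the summed erythromycin ratio was 0.061 without centring, against 0.01 with it. Both mutant libraries were also the shallower ones, so that depth and genotype go together. With reads thinned to the depth of the shallowest library, HIST1H1E kept mutant over wild type ratios of −0.33 without and −0.27 with erythromycin, and HIST1H1C −0.08 and −0.20. Reads to drop are drawn at random in thinning, and values of the genes with fewer reads moved more. HIST1H1D had −0.64 and −0.07 for the mutant after thinning, and −0.49 for erythromycin in wild type. HIST1H1T had −0.53 and 1.19 for the mutant, −1.90 for erythromycin in wild type and −0.18 in the mutant. In these bulk libraries fewer cells in S phase and less H1 mRNA per cell cannot be told apart, and with no total mRNA measured, nor can mRNA level and translation.

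The erythromycin ratio in the mutant minus that in wild type was −0.01 (−0.06 to 0.04) for the sum. HIST1H1D had the value farthest from 0 among the 3 somatic genes tested, 0.44 (0.13 to 0.75), from −0.31 in wild type and 0.13 in the mutant. HIST1H1C had −0.14 (−0.21 to −0.06), HIST1H1E 0.07 (0.00 to 0.14) and HIST1H1T 0.45 (−0.91 to 1.87). None passed 2-fold, against 13.9% of all transcripts, and 46.2% of transcripts tested were at least as far from 0 as HIST1H1D. With thinned reads HIST1H1T was past 2-fold at 1.72, and HIST1H1D stood at 0.58. Thinning drops reads at random and HIST1H1T had only 11 to 64 reads before it, so 1.72 is no firmer a value than 0.45. With 4 libraries this difference leaves no degrees of freedom for a test.

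**Figure D3:**
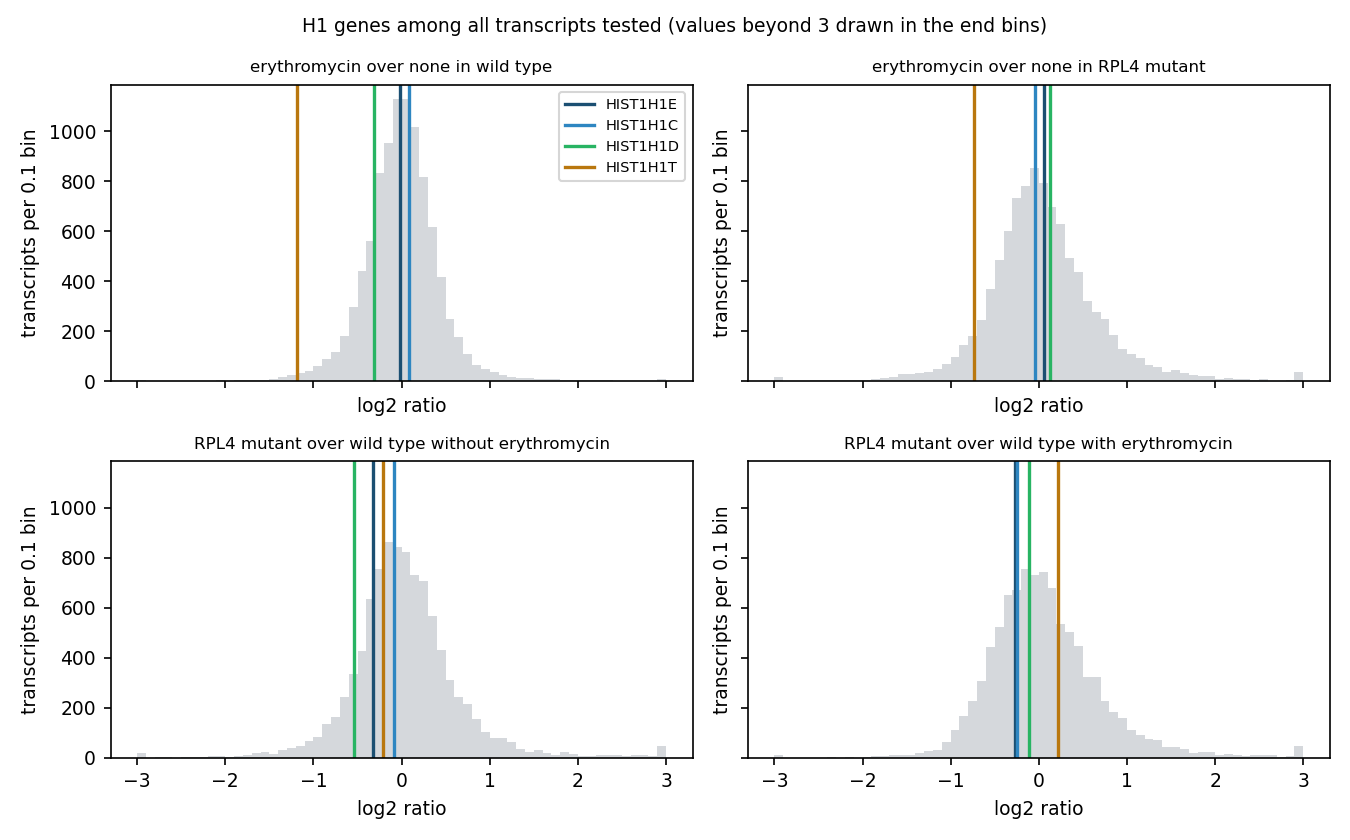
Distribution of centred log2 ratios over 9612 transcripts in bins of 0.1 (grey bars, number of transcripts), with the 4 H1 genes that passed the filter as vertical lines, in each of the 4 comparisons. HIST1H1E, HIST1H1C and HIST1H1D fall within the body of each distribution, and HIST1H1T lies in the lower tail for erythromycin in wild type, where 0.8% of transcripts are lower.

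Effects over all 4 libraries were tested with limma, with 1 residual degree of freedom and Benjamini-Hochberg adjustment over 9612 transcripts. None of the 4 members passed 0.05 for erythromycin, where 0.125% of all transcripts did (12 of 9612), and none for the mutant, where 1.28% did (123 of 9612). At an unadjusted 0.05, HIST1H1T passed for erythromycin and HIST1H1E for the mutant, as did 540 and 1132 transcripts in all. HIST1H1E did not in 4 other settings, with an unadjusted limma p of 0.0625 at a mean of 20 RPKM or more, 0.105 with no filter, 0.126 on the common RPKM sum and 0.309 without a variance trend. HIST1H1E had a mutant effect of −0.29 (SE 0.101, limma, Benjamini-Hochberg adjusted p = 0.273), being lower in the mutant under both treatments. Over the other settings tried, its adjusted p from limma lay between 0.21 and 0.726. HIST1H1T had an erythromycin effect of −0.97 (SE 0.284, limma, Benjamini-Hochberg adjusted p = 0.561), lower with the drug in both genotypes, with 0.165 to 1.00 over the other settings. The mutant effect was −0.16 (SE 0.106) for HIST1H1C and −0.32 (SE 0.194) for HIST1H1D in the limma model. With no filter on low values, HIST1H1A passed for the mutant (1.90, SE 0.577, limma, Benjamini-Hochberg adjusted p = 0.0395), a call that rests on 0 and 0 reads in wild type against 1 and 2 in the mutant.

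Within the family, the balance of the 2 abundant genes differed between libraries. HIST1H1C over HIST1H1E was 0.788 (95% interval 0.771 to 0.805) in wild type without erythromycin, 0.850 (0.831 to 0.870) in wild type with it, 0.926 (0.880 to 0.975) in the mutant without it and 0.864 (0.831 to 0.898) in the mutant with it. This ratio needs no scaling between libraries. Wild type without the drug had the lowest value, and its interval overlapped no other. Wild type and mutant with erythromycin overlapped each other, and so did the mutant without and with erythromycin. HIST1H1D as a percentage of HIST1H1E was 5.68% (5.35% to 6.04%), 4.64% (4.31% to 4.99%), 4.89% (4.14% to 5.75%) and 5.16% (4.57% to 5.81%) in the same order, and the intervals of the first 2 values did not overlap. Without replicates these intervals do not include the spread between cultures.

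**Figure D4:**
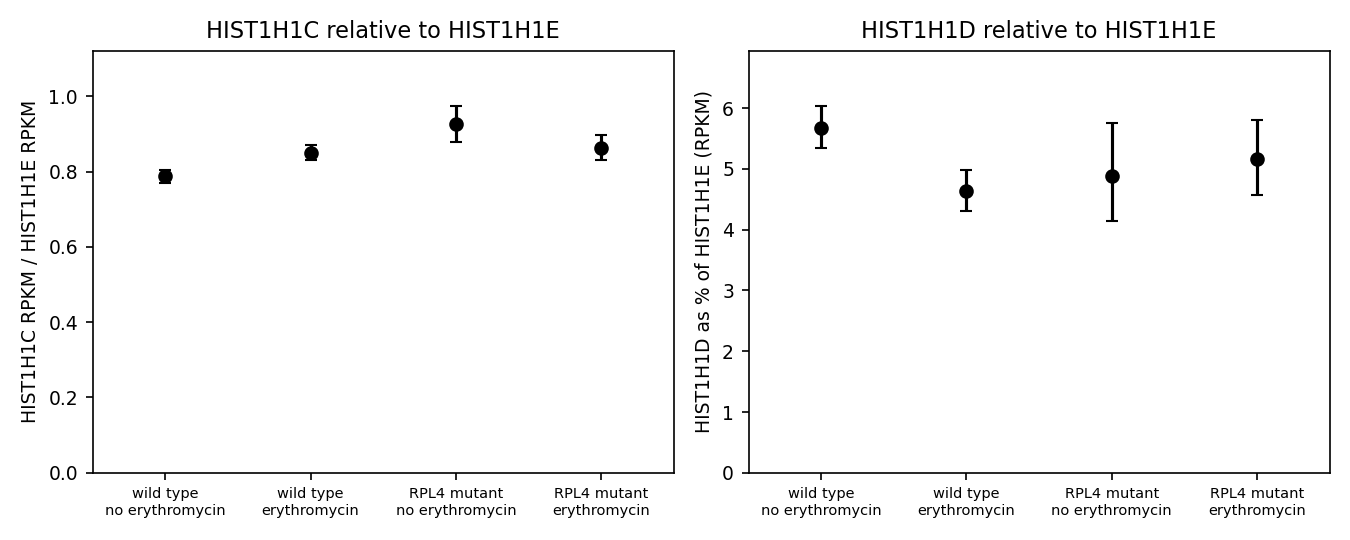
HIST1H1C relative to HIST1H1E (ratio of RPKM, left) and HIST1H1D as a percentage of HIST1H1E (right) in each library; points are single libraries and bars are 95% counting intervals. The first ratio runs from 0.788 in wild type without erythromycin to 0.926 in the mutant without it, and the second from 4.64% to 5.68%.

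The replication-independent linker histones are made throughout the cell cycle. H1FX stood at 413.9, 424.2, 420.0 and 404.5 RPKM in the order of libraries used above, close to the level of HIST1H1D, and its mutant over wild type ratio was 0.05 without and −0.13 with erythromycin. H1F0, the form known from resting and differentiated cells, stood at 43.2, 34.1, 132.9 and 48.2 RPKM, from 75, 51, 47 and 28 reads. The mutant without erythromycin stood above the other 3, with a mutant over wild type ratio of 1.62 (1.09 to 2.19), but limma did not call its mutant effect (1.03, Benjamini-Hochberg adjusted p = 0.177). These genes together made up 2.40%, 2.40%, 3.41% and 2.70% of all H1 RPKM. H1FNT had 2 reads in wild type without erythromycin and 0 elsewhere, and H1FOO and HILS1, germ cell forms, were in no library.

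The core histones give the level against which H1 can be set, since a nucleosome holds a pair of each core histone and binds about 1 linker histone. The summed RPKM of the H1 genes over the mean sum of the 4 core classes was 0.657 in untreated and 0.734 in treated wild type, and 0.681 and 0.667 in the mutant. The value was highest in wild type with erythromycin. Between the wild type libraries the H3 sum was 22092.1 RPKM without and 17908.2 RPKM with the drug, the H2B sum 33398.3 and 28564.8 RPKM, and the H2A sum 25332.1 and 22929.0 RPKM. H4, at 32421.6 and 32171.6 RPKM, stayed nearly level, as did H1 at 18588.2 and 18626.8 RPKM. Core histone genes, 51 of 57 tested, had a median ratio of −0.19 for erythromycin in wild type and −0.03 in the mutant, and of −0.26 and −0.17 for mutant over wild type without and with the drug, where the median of all transcripts is 0. By class the mutant over wild type medians were −0.12 and −0.15 for H2A, −0.22 and −0.09 for H2B, −0.51 and −0.54 for H3 and −0.28 and −0.27 for H4. The median of the 4 H1 genes tested, at −0.27 and −0.18, lay within this range. The H1 sum, at −0.22 and −0.25, is a ratio of sums and not a median. With erythromycin, summed RPKM in wild type and mutant was 22929.0 and 23845.1 for H2A and 28564.8 and 27882.3 for H2B. It was 17908.2 and 16849.8 for H3, 32171.6 and 29387.7 for H4 and 18626.8 and 16344.1 for H1. The H1 sum was lower by a larger share than any class sum in that comparison, but not in the one without erythromycin. Without the drug, summed RPKM in wild type and mutant was 25332.1 and 22068.8 for H2A and 33398.3 and 27190.0 for H2B. For H3 it was 22092.1 and 15858.2, for H4 32421.6 and 26881.5 and for H1 18588.2 and 15670.3. There the H2B, H3 and H4 sums were lower by a larger share than the H1 sum, and the H2A sum by a smaller one. On the common RPKM sum, where the median transcript stands at 0.08 and 0.14, the H2B median with erythromycin was 0.05 and the other class medians stayed below 0, H2A at −0.03 and −0.01. No test of a difference between H1 and the core classes was made. Windows shared with other genes were counted for the H1 genes only, and how reads with several matches were counted is not given. How far such reads affect the core sums was not tested.

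**Figure D5:**
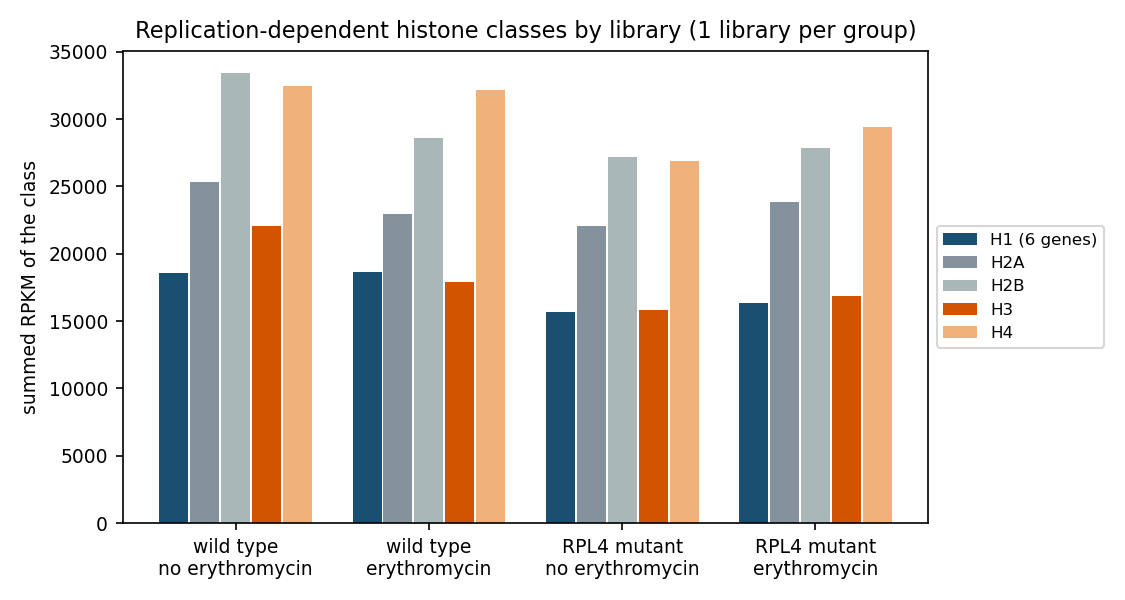
Summed RPKM of the 6 H1 genes and of the replication-dependent H2A, H2B, H3 and H4 genes in each library (linear axis from 0, 1 library per group, no error bars). The H1 sum is 18588.2 and 18626.8 RPKM in wild type and 15670.3 and 16344.1 RPKM in the mutant, and the H3 sum is below the H1 sum in wild type with erythromycin, at 17908.2 RPKM.

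In the limma model 1 of the 51 core genes passed, HIST1H3I for the mutant, where 1.28% of all transcripts did (123 of 9612). HIST1H3I, a gene for histone H3, is next to HIST1H1B at 4375 bases and was singled out after its values were seen. It stood at 160 and 95.2 RPKM in wild type and 20.1 and 9.80 RPKM in the mutant (mutant effect −3.05, SE 0.259, limma, Benjamini-Hochberg adjusted p = 7.84e-05). HIST1H2BD, a gene for histone H2B 1038 bases from HIST1H1E, stood between 3418.7 and 3907.8 RPKM over the 4 libraries. HIST1H3C, the closest histone gene to HIST1H1C at 9965 bases, had a mean of only 4.57 RPKM, and HIST1H4F, 5492 bases from HIST1H1D, 4.11 RPKM.

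Genes of histone gene transcription and histone mRNA processing were described from a single list of 18, of which 16 were tested and 0 passed limma for either effect. Their median ratios were 0.07 and −0.11 for erythromycin in wild type and mutant, and −0.05 and −0.04 for mutant over wild type, and 0.03 and 0.09 on the common RPKM sum. SLBP, which binds the stem-loop at the end of H1 and core histone mRNAs, stood at 168.2, 175.0, 158.7 and 155.7 RPKM. SYMPK, a scaffold of the machinery that cuts the end of histone mRNAs, stood at 108.1, 251.3, 564.0 and 298.2 RPKM, without passing limma. NCBP2, a subunit of the nuclear cap-binding complex, stood at 184.0, 154.5, 140.5 and 177.4 RPKM.

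Among 12 proteins that import or chaperone linker histones or compete with them for nucleosomes, all were tested and 0 passed limma. Median ratios were 0.29 and −0.04 for erythromycin, and −0.13 and −0.45 for mutant over wild type. In that last comparison 12 of 12 were below 0, where centring puts 50.0% of all transcripts. On the common RPKM sum 10 of 12 were, with the median of all transcripts at 0.14. For erythromycin in wild type only 1 of the 12 was below 0, and both comparisons use the treated wild type library. HMGN2, which binds nucleosomes in competition with H1, stood at 4365.6, 4735.7, 4084.1 and 4162.8 RPKM. PTMA, an acidic protein that binds H1, stood at 2384.5, 3308.4, 2213.7 and 2809.1 RPKM, and NPM1, a histone chaperone of the nucleolus, at 2284.5, 2930.5, 2050.5 and 1624.2 RPKM. Of 34 genes of DNA replication and S phase, when H1 mRNAs are made, 0 passed limma for either effect. Their medians were −0.01 and −0.18 for erythromycin, and −0.14 and −0.26 for mutant over wild type, or −0.06 and −0.12 on the common RPKM sum. Medians below 0 in both mutant comparisons were not particular to this list: the 4 HEK293 markers that passed the filter had −0.33 and −0.76. TYMS, which makes thymidylate, stood at 771.1, 731.9, 597.1 and 642.2 RPKM, RRM2, a subunit of ribonucleotide reductase, at 550.6, 616.5, 482.8 and 466.8 RPKM, and PCNA, the sliding clamp of DNA polymerase, at 554.3, 577.5, 498.8 and 429.0 RPKM. Whether a difference in the share of S phase cells moves with the H1 levels was not tested.

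Profiles over the 4 libraries were compared by the Euclidean distance between log2 values after each gene was centred on its own mean, over 5566 transcripts whose mean was 20 RPKM or more. The closest to HIST1H1E were SUPT4H1 (distance 0.0112), RPS15 (0.0216) and CAPZB (0.0219). SUPT4H1 had 488.7, 478.6, 387.9 and 418.0 RPKM, a profile with the same shape at a lower level. The closest to HIST1H1C were SLBP (0.0332), HMGN2 (0.0346) and PARK7 (0.0363). The closest to HIST1H1D were SEPHS1 (0.0172), SLC35B2 (0.0421) and PAF1 (0.0483). Profiles of only 4 points are easily matched: 95 transcripts lay within 0.1 of HIST1H1E, 90 within 0.1 of HIST1H1C and 17 within 0.1 of HIST1H1D.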

How the data were processed

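Per the submitters' processing notes, cutadapt and STAR were used, with GRCh38 as the build. The tool that counted reads is not given in the sources used here, nor its annotation or how it treated reads with several matches. The authors deposited 1 RPKM value per Ensembl transcript and library, and a transcript absent from a library was read as 0. Names, positions and coding lengths came from GENCODE 29 (16172 of 16292 transcripts matched). RPKM times coding length times the library total gave whole reads, within 0.001, for 99.1% to 99.2% of matched transcripts, which gave totals of 2965243, 2555613, 604506 and 993461 reads.

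Ratios used log2(RPKM + 1), transcripts with a 4-library mean of 5 RPKM or more, and centring on the median of 9612 transcripts. The pseudocount understates ratios of low genes. Single-library differences have no p. Intervals are exact binomial or Poisson (Poisson by the delta method for sums and differences of ratios) and cover counting error only. limma 3.58.1 (R 4.3.3) fitted genotype plus treatment, eBayes with trend, with p-values adjusted after Benjamini-Hochberg (0.05). It is exploratory, since its error is the difference between the genotypes' responses. The simulated data on which it was tested held counting error only, so they cannot show how it handles spread between cultures. Nothing says that libraries came from separate cultures.

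Named were RPL4, all members, the replication-independent H1 genes, the 3 members of highest mean RPKM in each other list, and for likeness the 3 nearest profiles of the 3 members with most reads. Members and lists were chosen with earlier results of these data known. Promoter windows are RefSeq's.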

Additional observations from a re-analysis of the deposited data

How the results depend on the processing

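Depth limits HIST1H1A, HIST1H1B and HIST1H1T most, with at most 64 reads in a library. Of 140 alternative values of single H1 genes, 130 moved by less than their interval and 10 by more. Transcripts beyond 2-fold, in the order erythromycin in wild type, in mutant, mutant without and with erythromycin, numbered 114, 477, 409 and 457 with a pseudocount of 5 RPKM, 925, 2922, 2458 and 2218 with no filter, and 107, 266, 254 and 310 with a mean of at least 20 RPKM. In the last of these comparisons 75.7% of them were higher, and 86.3% on a common RPKM sum. limma calls for erythromycin (12) and the mutant (123) became 31 and 209 with a pseudocount of 0.1 RPKM, 149 and 441 with no filter, 26 and 194 without centring, 24 and 187 centred on the gene mean (added after seeing the data), 0 and 65 without a variance trend, and 0 and 54 without the other factor; erythromycin had 40 at a mean of at least 20 RPKM. At an unadjusted 0.05 the 0 counts were 500 and 242. The summed H1 ratio for erythromycin was 0.062 in wild type and −0.040 in the mutant without HIST1H1E, −0.17 in wild type as the median of members, and 0.061 in the mutant without centring. For mutant over wild type without erythromycin it was −0.14 on a common sum, −0.11 without HIST1H1E and −0.27 as a median, and with erythromycin −0.19 without centring, −0.11 on a common sum and −0.18 as a median. The difference of responses was 0.058 without centring, −0.10 without HIST1H1E and 0.26 as a median. The causes were not tested. No paired analysis was possible because the labels give no replicate numbers and each group has 1 library; leaving out a library would leave no residual degrees of freedom.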
